A study of Mus musculus with 12 samples.

Results

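The fibroblast growth factor (FGF) system was examined in 12 mammary tumors of MMTV-Neu mice through 9 of the 54532 genes counted, chosen by name. They are the 5 ligand genes Fgf1, Fgf2, Fgf7, Fgf10 and Fgf18 and the 4 receptor genes Fgfr1, Fgfr2, Fgfr3 and Fgfr4. MMTV-Neu mice carry the Neu (ErbB2) oncogene, in its unactivated wild-type form, under the mouse mammary tumor virus promoter. This promoter is active mainly in mammary epithelium, and the control mice carried the Neu oncogene too. Treatment began when a tumor reached 4 mm and lasted 10 days, with either agonist mixed into the feed of female mice at 100 mg/kg. From each of the 3 diets (control, MSU-42011, bexarotene) 4 tumors were sequenced, and ages were not analysed here. Both compounds activate the retinoid X receptor (RXR), a nuclear receptor. The study compared each RXR agonist with control diet and the agonists with each other at this shared dose and time.

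FGF ligands are secreted proteins that bind receptor tyrosine kinases on the cell surface together with heparan sulfate, and the activated receptors pass the signal on through adaptor proteins to the RAS and ERK kinases. In the mammary gland, Fgf7 and Fgf10 are known as products of the stroma that act on the epithelial splice form of Fgfr2, whereas Fgf1 can bind the receptors more broadly and Fgf2 acts chiefly through the forms found in mesenchyme. Fgf18 belongs to the ligand subfamily of Fgf8 and Fgf17. A gene-level count does not separate the splice forms of a receptor that decide which ligand it binds.

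RNA was captured by poly(A) selection and the total count per tumor lay between 16583413 and 25925027, with a median of 19342536. A count of 3, taken as the floor of detection, corresponded to between 0.116 and 0.181 CPM (counts scaled to library size). This floor accounts for counting error alone. Of the 10 luminal epithelial markers listed for these mammary tumors, all were among the 15504 genes that passed the filter on low counts, with a summed level between 3580 and 7260 normalized CPM. The tumor labelled bexarotene replicate 1 stood apart from the other 11. It lay at -115 on the first principal component, against -16.2 to 34.2 for the others, and 19.1% of the tested genes had their highest level in it. Values of the 9 genes in comparisons with bexarotene are therefore given with and without this tumor. In bulk tumor RNA, fewer cells of a type and less RNA per cell cannot be told apart.

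Fgf2, Fgf7, Fgf10 and Fgf18, 4 of the 9 members, were each highest in bexarotene replicate 1. The same held for 19.1% of all tested genes, but Fgf10 and Fgf18 did not pass the filter and lie outside that share. Bexarotene replicate 2 was second highest for each of the 4 members, but for Fgf10 by 3 counts, at the floor, against 2 in MSU-42011 replicate 2. The share of all genes with this pair of tumors on top was not computed. The 250 bases upstream of the RefSeq start are shown for Fgf7, Fgf10 and Fgf18, to let their base composition be compared. Their windows lie outside annotated exons, and that of Fgf2, which does not, is not shown. The bases run 5′ to 3′ on the strand of the gene (RefSeq, GRCm38.p6), and capitals mark AGGTCA, the half-site of the hexamer repeats that RXR and its partner receptors are known to bind.
Fgf7, chr2:126034408-126034657, plus strand: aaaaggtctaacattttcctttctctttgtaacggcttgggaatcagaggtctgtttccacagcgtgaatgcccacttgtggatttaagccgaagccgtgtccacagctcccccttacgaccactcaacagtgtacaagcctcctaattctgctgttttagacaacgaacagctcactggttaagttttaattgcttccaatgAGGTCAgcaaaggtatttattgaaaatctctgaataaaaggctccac
Fgf10, chr13:118714449-118714698, plus strand: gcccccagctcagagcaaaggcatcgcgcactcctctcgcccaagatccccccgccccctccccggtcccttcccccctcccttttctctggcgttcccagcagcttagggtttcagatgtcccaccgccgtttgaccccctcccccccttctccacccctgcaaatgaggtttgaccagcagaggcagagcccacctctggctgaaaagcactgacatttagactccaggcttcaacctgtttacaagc
Fgf18, chr11:33147401-33147650, minus strand: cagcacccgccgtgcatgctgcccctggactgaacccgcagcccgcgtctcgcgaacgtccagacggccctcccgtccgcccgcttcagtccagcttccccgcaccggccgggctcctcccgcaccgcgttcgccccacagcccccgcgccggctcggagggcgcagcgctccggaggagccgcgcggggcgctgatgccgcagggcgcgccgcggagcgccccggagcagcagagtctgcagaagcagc

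The windows of Fgf7 and Fgf18 end at the annotated start of the gene, while that of Fgf10 lies inside the annotated span of the gene, before the first exon of a shorter transcript. AGGTCA, searched on both strands, was present once in the Fgf7 window, on the plus strand with its first base at position -47, counted back from the start. It was absent from the windows of Fgf10, Fgf18, Fgf2, Fgfr2, Fgfr3 and Fgfr4, so 1 of the 8 member windows held it. Among 32851 promoter windows of this length, 14.0% held it. The sequence TATAAA was found in no member's window and in 12.4% of all windows. The windows differed in CpG dinucleotides, with 6 in Fgf7, 8 in Fgf10, 20 in Fgf2 and 37 in Fgf18, beside a median of 6 over all windows. The GC content was 43.6% for Fgf7, 61.2% for Fgf10, 62.4% for Fgf2 and 77.2% for Fgf18, beside a median of 52.4%. RefSeq windows were matched for 7 of the 9 members. A match is a string of letters, not a measured binding site, and no binding was measured in these tumors.

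The mRNA level of Fgfr1, a receptor whose gene is amplified in some human breast cancers, exceeded that of every other member in every tumor. Levels between genes are compared as FPKM, the fragments per kilobase of gene length, scaled to library size, as deposited by the authors. Fgfr1 had a mean of 186 FPKM over 12 tumors, with a range from 104 to 254, and 96.3% of the tested genes had a lower mean. Within the control group it measured 194, 183, 189 and 165 FPKM. Within the MSU-42011 group it measured 214, 104, 227 and 191 FPKM, and within the bexarotene group 192, 184, 254 and 137 FPKM. The groups overlapped, with the lowest level in MSU-42011 replicate 2 and the highest in bexarotene replicate 3. Fgfr1 made up 97.1% of the summed FPKM of the 4 receptors on average, between 93.8% in MSU-42011 replicate 2 and 98.6% in bexarotene replicate 3.

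**Figure D1:**
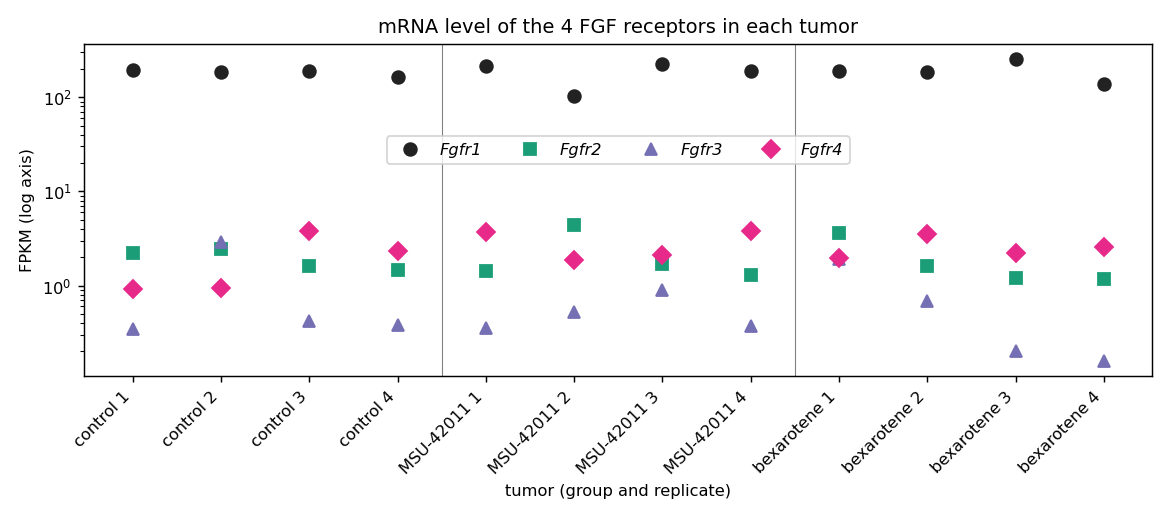
The level of each FGF receptor gene (FPKM, log axis) is plotted for every tumor, with vertical lines between the control, MSU-42011 and bexarotene groups. Fgfr1 lies between 104 and 254 FPKM, and the other 3 receptors lie between 0.158 and 4.43 FPKM.

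After Fgfr1, the order by mean FPKM over 12 tumors was Fgf2 (6.57), Fgfr4 (2.49), Fgf1 (2.23), Fgfr2 (2.02), Fgf7 (1.53), Fgfr3 (0.765), Fgf18 (0.451) and Fgf10 (0.171). The range of each of these genes overlapped that of its neighbor in the order, and only the range of Fgfr1 was separate. Compared within each tumor, Fgf2 was above Fgfr4 in 11 of 12 tumors, Fgfr4 above Fgf1 in 8 and Fgf1 above Fgfr2 in 9. Fgfr2 was above Fgf7, Fgf7 above Fgfr3 and Fgfr3 above Fgf18 in 10 tumors each, and Fgf18 above Fgf10 in 4. The order was the same over the 11 tumors without bexarotene replicate 1, but the mean of Fgf2 was then 4.48 FPKM, that of Fgf7 1.10, that of Fgf18 0.13 and that of Fgf10 0.0167. In the 4 control tumors the order was Fgfr1, Fgf2, Fgf1, Fgfr4, Fgfr2, Fgf7, Fgfr3, Fgf18 and Fgf10, and there the ranges of Fgfr2 and Fgf7, and of Fgfr3 and Fgf18, did not overlap. The length that the FPKM values use is shorter than the length listed for the gene, at 2254 against 9875 bases for Fgfr1 and 1232 against 6782 bases for Fgf2. With the listed lengths instead, Fgf7 moved ahead of Fgf1 and Fgfr2, and Fgf18 ahead of Fgfr3, over 12 tumors. Both Fgf7 ahead of Fgf1 and Fgf18 ahead of Fgfr3 rested on bexarotene replicate 1. Over the other 11 tumors, the order with listed lengths was Fgfr1, Fgfr4, Fgf2, Fgf1, Fgf7, Fgfr2, Fgfr3, Fgf18 and Fgf10. Fgf2 supplied the largest share of the summed ligand FPKM in each group mean, at 53.4% ± 5.52 (SD, n = 4) in control tumors, 56.7% ± 1.36 in tumors treated with MSU-42011 and 61.3% ± 3.74 in tumors treated with bexarotene. The corresponding share of Fgf1 was 31.7% ± 4.63, 31.4% ± 6.96 and 17.1% ± 10.3. Without bexarotene replicate 1, the bexarotene shares were 59.5% for Fgf2 and 20.8% for Fgf1. These shares rest on the lengths that the FPKM values use. With the listed lengths, Fgf2 and Fgf1 were nearly level over the 11 tumors, at means of 0.818 and 0.807 CPM per kilobase, so the lead of Fgf2 depends on the length used.

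In the comparison of MSU-42011 with control, no FGF ligand or receptor differed beyond the spread between tumors. The test was edgeR's quasi-likelihood F test on the counts, with p-values adjusted by the Benjamini-Hochberg method over all tested genes. Of the 9 members, 7 passed the filter on low counts, and Fgf10 and Fgf18 did not. None of the 7 was called in any comparison, and none of the 15504 genes was called in any of the 3 comparisons, which is 0.0% of them. DESeq2 called 1, 6 and 25 genes in the comparisons of MSU-42011 with control, bexarotene with control and MSU-42011 with bexarotene. No FGF member was among them, and Fgf10 could not be, since DESeq2 gave it no p-value. For MSU-42011 against control, 0 of the 7 had an unadjusted p under 0.05, beside 1.99% of all tested genes, and 0 had groups that did not overlap, beside 1.97%. Exact permutation tests of 4 tumors against 4 cannot give a two-sided p below 0.0286, and those of 4 against 3 cannot go below 0.0571. The p-values measure the spread between these tumors.

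In the comparison of bexarotene with control, Fgf2 and Fgf7 had an unadjusted p under 0.05, both higher in tumors treated with bexarotene. These 2 of 7 members stand beside 6.44% of all tested genes. The count was 0 of 7 without bexarotene replicate 1, beside 3.35%. In the comparison of MSU-42011 with bexarotene, the same 2 genes passed this limit, both lower with MSU-42011, beside 3.95% of all genes, and without bexarotene replicate 1 only Fgf7 did, beside 3.07%. No member had groups that did not overlap in these comparisons. The share of all tested genes with groups apart was 2.03% for bexarotene against control, 3.82% without the tumor that stood apart, 1.17% for MSU-42011 against bexarotene and 3.42% without that tumor.

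**Figure D2:**
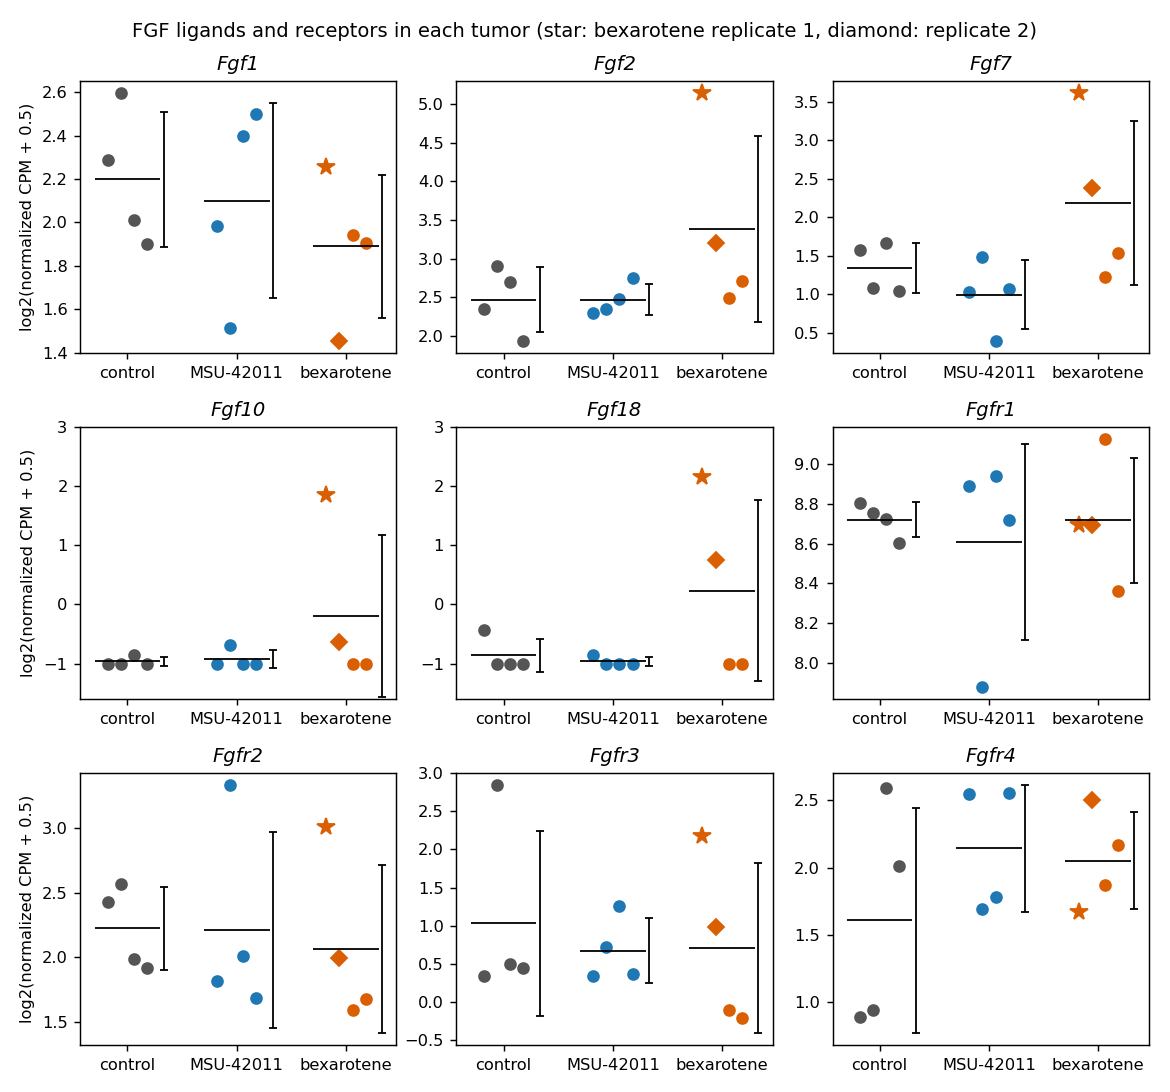
Each panel plots 1 gene as log2 of normalized CPM plus 0.5, with 1 point per tumor, a horizontal line at the group mean and a bar of 1 SD on each side (n = 4 per group). The star (bexarotene replicate 1) and the diamond (bexarotene replicate 2) are the top values for Fgf2, Fgf7, Fgf10 and Fgf18, while the receptor panels show overlapping groups. For Fgf10 the diamond stands for 3 counts, at the floor.

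Fgf2, a broadly acting growth factor for fibroblasts and endothelial cells, measured 4.57, 6.96, 5.99 and 3.32 normalized CPM in control tumors. In tumors treated with MSU-42011 it measured 4.40, 4.60, 5.09 and 6.20. In tumors treated with bexarotene it measured 34.8, 8.68, 5.13 and 6.07. Bexarotene replicates 1 and 2 were above all 8 tumors of the other groups, and replicates 3 and 4 lay within the range of the control tumors. Relative to control tumors, the bexarotene group had a log2 fold change of 1.40 (SE 0.53, 95% confidence interval 0.23 to 2.56), with an unadjusted edgeR p of 0.0225, an adjusted p of 0.762 and an exact permutation p of 0.171. This value was 0.35 (interval -0.27 to 0.97) without bexarotene replicate 1. Relative to bexarotene, the MSU-42011 group had a log2 fold change of -1.43 (SE 0.54, edgeR adjusted p 0.997), and of -0.38 without bexarotene replicate 1.

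Fgf2 (ENSMUSG00000037225) lies on the plus strand of chromosome 3, from 37348346 to 37410108, and 9.4% of its exon bases are shared with Nudt6 on the opposite strand. The strand setting of the counting is not given in the sources used here, so reads in the shared bases cannot be assigned with certainty. Nudt6 measured 4.61 normalized CPM in bexarotene replicate 1, within the range of 2.65 to 5.66 in the other 11 tumors. The same-strand gene Gm43439, which shares 3.8% of the exon bases, had a count of 0 in all tumors.

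Fgf7 (keratinocyte growth factor) had the largest log2 fold change between the agonists among the 7 tested members. It measured 2.49, 1.61, 2.67 and 1.55 normalized CPM in control tumors and 1.54, 2.30, 0.813 and 1.59 in tumors treated with MSU-42011. In tumors treated with bexarotene it measured 11.7, 4.72, 1.84 and 2.39. Bexarotene replicates 1 and 2 were again above every other tumor, and replicates 3 and 4 lay within the range of the control tumors. The log2 fold change of MSU-42011 relative to bexarotene was -1.73 (SE 0.55, interval -2.92 to -0.54), with an unadjusted edgeR p of 0.00799, an adjusted p of 0.997 and an exact permutation p of 0.0571. Without bexarotene replicate 1 it was -0.94 (SE 0.42, interval -1.86 to -0.017), with an unadjusted edgeR p of 0.0466, an adjusted p of 0.939 and an exact permutation p of 0.114. Bexarotene relative to control gave 1.32 (SE 0.54, unadjusted edgeR p 0.0303, adjusted p 0.762, exact permutation p 0.171), and 0.52 without bexarotene replicate 1. The value for MSU-42011 relative to control was -0.41 (interval -1.59 to 0.77). Fgf7 (ENSMUSG00000027208) lies on chromosome 2 from 126034658 to 126091185, and no exon of another gene overlaps its exons.

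For both Fgf2 and Fgf7, the values moved with the same pair of tumors. With bexarotene replicates 1 and 2 left out together, a choice made after their values were seen, the log2 fold change of bexarotene relative to control was 0.11 for Fgf2 and 0.026 for Fgf7. For MSU-42011 relative to bexarotene it was -0.14 for Fgf2 and -0.44 for Fgf7. DESeq2 on all 12 tumors called neither gene, and its smallest adjusted p for them was 0.178, for Fgf7 between the agonists.

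Fgf10, the stromal ligand that the embryonic mammary gland is known to need, was counted in 4 of the 12 tumors. Its raw counts were 84 and 3 in bexarotene replicates 1 and 2, 2 in MSU-42011 replicate 2 and 1 in control replicate 3. The 8 tumors with a count of 0 were not distinguishable from the tumors with 1 to 3 counts at this depth. The 84 counts corresponded to 3.10 normalized CPM, and only this tumor exceeded the floor of 3 counts. Exact permutation tests gave p = 0.429 for bexarotene relative to control and between the agonists, and p = 0.857 for each without bexarotene replicate 1.

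Fgf18 showed a like distribution, with raw counts of 107 and 25 in bexarotene replicates 1 and 2, 4 in control replicate 1, 1 in MSU-42011 replicate 1 and 0 in the other 8 tumors. The levels in the bexarotene tumors were 3.95, 1.19, 0 and 0 normalized CPM. Unlike Fgf10, it was above the floor in bexarotene replicate 2. The exact permutation p was again 0.429 in both comparisons with bexarotene and 0.857 without bexarotene replicate 1. For bexarotene relative to control, edgeR with no filter on low counts gave unadjusted p-values of 0.00619 for Fgf10 and 0.00913 for Fgf18. The adjusted p-values were 0.616 and 0.627. Between the agonists the unadjusted p-values of this edgeR fit were 0.0112 for Fgf10 and 0.00313 for Fgf18, with adjusted p-values of 0.792 and 0.584. This fit was not run without bexarotene replicate 1. DESeq2 gave no p-value for Fgf10. For Fgf18 its unadjusted p was 0.197 for bexarotene relative to control and 0.0727 between the agonists. Fgf10 (ENSMUSG00000021732) lies on chromosome 13 from 118669791 to 118792115, and Fgf18 (ENSMUSG00000057967) on the minus strand of chromosome 11 from 33117430 to 33147400.

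Fgf1, a ligand that can bind all 4 receptors, did not share this pattern. It measured 4.39, 5.54, 3.53 and 3.23 normalized CPM in control tumors, 3.46, 2.36, 4.77 and 5.16 with MSU-42011, and 4.28, 2.24, 3.34 and 3.25 with bexarotene. Bexarotene replicate 2, second highest for Fgf2, Fgf7 and Fgf18, was lowest for Fgf1. The groups overlapped, and the log2 fold change was -0.081 (interval -0.74 to 0.58) for MSU-42011 and -0.35 (interval -1.01 to 0.32) for bexarotene, each relative to control. The latter was -0.50 (interval -1.21 to 0.20) without bexarotene replicate 1. Between MSU-42011 and bexarotene the difference was 0.26 (interval -0.40 to 0.93), and 0.42 (interval -0.28 to 1.13) without that tumor. Fgf1 (ENSMUSG00000036585) lies on the minus strand of chromosome 18 from 38838673 to 38929404, and its exons overlap no other gene's exons.

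**Figure D3:**
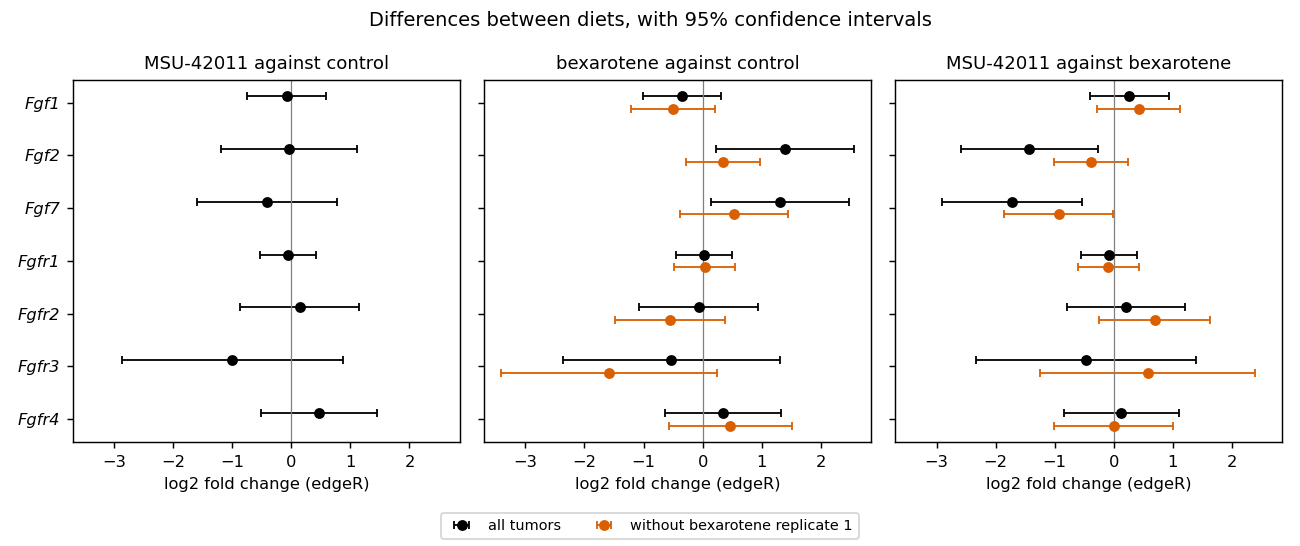
Points give the log2 fold change of the 7 tested genes in each comparison from edgeR, and bars the 95% confidence interval. Black points use all 12 tumors and orange points leave out bexarotene replicate 1 (not drawn for MSU-42011 against control), and the intervals that exclude 0 are those of Fgf2 and Fgf7 on all tumors in both comparisons with bexarotene and that of Fgf7 between the agonists without bexarotene replicate 1.

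Among the receptors, Fgfr1 had the narrowest intervals. In normalized CPM, control tumors had 447, 431, 422 and 388, tumors treated with MSU-42011 474, 235, 491 and 421, and tumors treated with bexarotene 414, 413, 558 and 328. The control tumors lay close together, and both treated groups reached below and above them. The log2 fold change was -0.058 (SE 0.22, interval -0.53 to 0.41) for MSU-42011 and 0.022 (SE 0.22, interval -0.45 to 0.49) for bexarotene, each relative to control. Between the agonists it was -0.080 (interval -0.55 to 0.39). The 2 values with bexarotene were 0.038 (interval -0.48 to 0.55) against control and -0.095 (interval -0.61 to 0.42) between the agonists when bexarotene replicate 1 was left out. Leaving out MSU-42011 replicate 2 alone turned its value against control to 0.13. Fgfr1 (ENSMUSG00000031565) lies on chromosome 8 from 25513654 to 25575718.

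Fgfr2, the receptor for Fgf7 and Fgf10 in its epithelial splice form, was highest in MSU-42011 replicate 2, where Fgfr1 was lowest. It measured 4.87, 5.44, 3.47 and 3.28 normalized CPM in control tumors, 3.02, 9.57, 3.52 and 2.72 with MSU-42011, and 7.53, 3.48, 2.52 and 2.70 with bexarotene. In each treated group 1 tumor was above all control tumors, and the remaining 3 overlapped or lay below them. The log2 fold change relative to control was 0.14 (interval -0.86 to 1.14) for MSU-42011 and -0.066 (interval -1.07 to 0.94) for bexarotene. Without MSU-42011 replicate 2 the first was -0.46, and without bexarotene replicate 1 the second was -0.55 (interval -1.49 to 0.38). MSU-42011 relative to bexarotene gave 0.21 (interval -0.80 to 1.21), and 0.69 (interval -0.24 to 1.63) without bexarotene replicate 1. The annotated span of Fgfr2 (ENSMUSG00000030849) on the minus strand of chromosome 7, from 130162451 to 133123350, is 2960900 bases long and holds 69 other genes. It shares 3.0% of its exon bases with Ctbp2 on the same strand, which had 80.1 normalized CPM in bexarotene replicate 1 and 81.7 to 109 in the others.

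Fgfr3, best known for its role in cartilage and bone growth, had the lowest mean level of the receptors and the widest range, 18.1-fold from lowest to highest tumor. It measured 0.771, 6.68, 0.909 and 0.862 normalized CPM in control tumors, 0.770, 1.15, 1.90 and 0.796 with MSU-42011, and 4.02, 1.48, 0.436 and 0.368 with bexarotene. Control replicate 2, with 141 counts against 13, 17 and 20 in the other controls, was the highest of all 12 tumors, and bexarotene replicate 4, with 6 counts, was the lowest. The log2 fold change relative to control was -1.0 (interval -2.88 to 0.87) for MSU-42011 and -0.53 (interval -2.37 to 1.31) for bexarotene. Without control replicate 2 these values were 0.44 and 0.90, so their sign rested on that tumor. Without bexarotene replicate 1 the bexarotene value was -1.58 (interval -3.41 to 0.24). For MSU-42011 relative to bexarotene the value was -0.47 (interval -2.34 to 1.40), and it turned to 0.58 (interval -1.24 to 2.40) without that tumor. Fgfr3 (ENSMUSG00000054252) lies on chromosome 5 from 33721674 to 33737068, and its only exon overlap, with G630022F23Rik, involves a gene with a count of 0.

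Fgfr4 varied most within the control group, with an SD of 1.98 normalized CPM, against 1.46 with MSU-42011 and 1.08 with bexarotene. It measured 1.36, 1.42, 5.51 and 3.53 normalized CPM in control tumors, 5.33, 2.73, 2.93 and 5.36 with MSU-42011, and 2.69, 5.15, 3.15 and 3.99 with bexarotene. All 8 treated tumors were above control replicates 1 and 2 and below control replicate 3. The log2 fold change relative to control was 0.47 (SE 0.45, interval -0.51 to 1.45) for MSU-42011 and 0.34 (SE 0.45, interval -0.64 to 1.32) for bexarotene. Without control replicate 3 these were 0.95 and 0.82, and without bexarotene replicate 1 the second was 0.47 (interval -0.57 to 1.51). MSU-42011 relative to bexarotene gave 0.13 (interval -0.85 to 1.11), and 0.00012 (interval -1.0 to 1.0) without bexarotene replicate 1. Fgfr4 (ENSMUSG00000005320) lies on chromosome 13 from 55152640 to 55168759, clear of other genes' exons.

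Bexarotene replicates 1 and 2, where Fgf2, Fgf7 and Fgf18 were highest, also had the highest summed levels of the fibroblast markers. The 10 fibroblast markers, among them the collagens Col1a1 and Col3a1 and the growth factor receptor Pdgfra, were all highest in bexarotene replicate 1. Their summed level there was 11500 normalized CPM, against 941 in bexarotene replicate 2, 244 and 170 in bexarotene replicates 3 and 4, 112 to 507 in control tumors and 187 to 541 with MSU-42011. In bexarotene replicate 2, Col1a1, Col1a2, Col3a1, Dcn, Lum, Fap and Postn were second highest, but Pdgfra, Pdgfrb and Thy1 were not. Pdgfra measured 8.25 normalized CPM there and 10.1 in control replicate 1. Pdgfrb measured 30.2 there and 74.5 in MSU-42011 replicate 3, and Thy1 12.5 and 30.9 in the same tumors. The part of fibroblasts in the ligand values was not tested. Other marker lists were high in bexarotene replicate 1 as well, with 8 of 8 genes highest there for endothelial cells (453 against 79.0 to 215 summed normalized CPM), 8 of 8 for macrophages (1580 against 178 to 492) and 8 of 8 for adipocytes (104 against 13.0 to 36.5). Skeletal muscle markers were 8 of 8 (289 against 1.72 to 141), basal and myoepithelial markers 5 of 8 (267 against 26.6 to 117), T cell markers 2 of 8 and luminal epithelial markers 1 of 10 (3580 against 5330 to 7260).

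**Figure D4:**
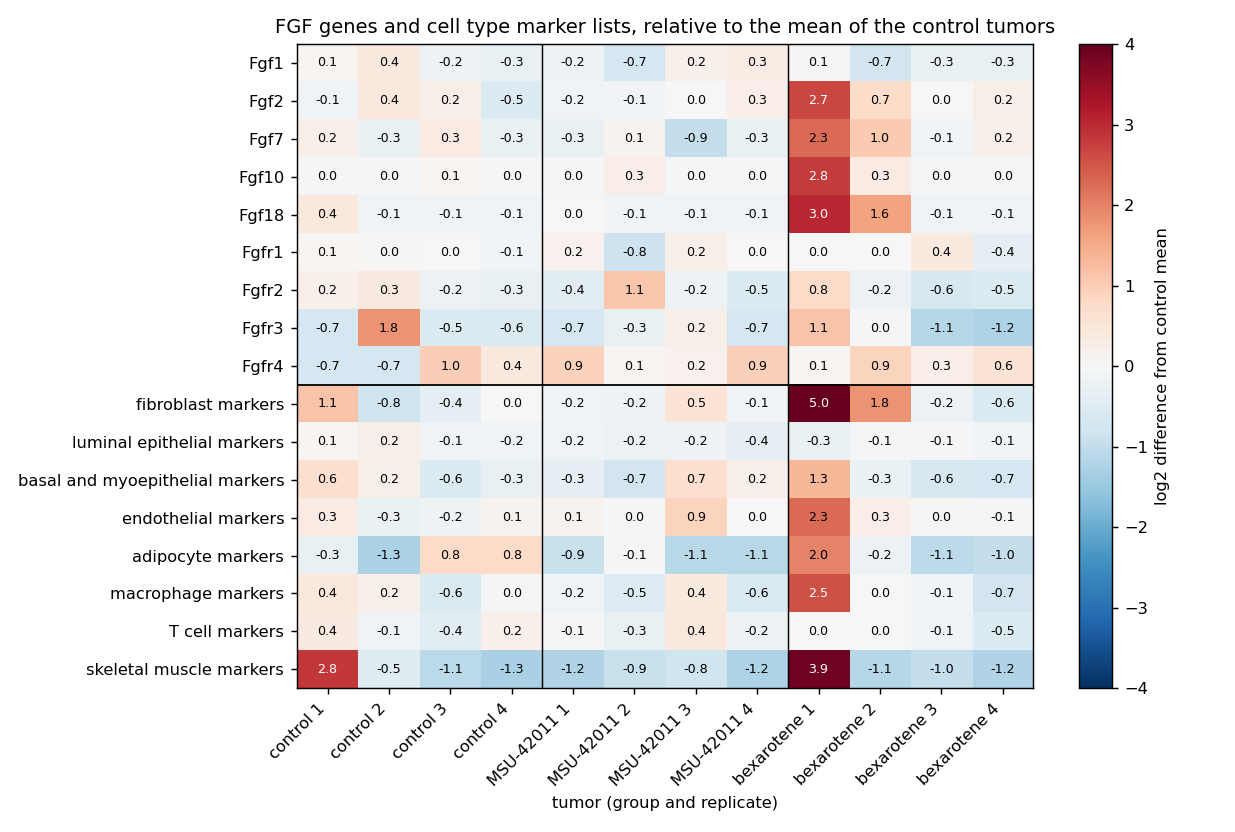
Each cell gives the log2 difference of 1 tumor from the mean of the 4 control tumors, for the 9 FGF genes above the line and the mean over the tested genes of each marker list below it. The color scale runs from -4 to 4, and values past its ends keep the end color. Bexarotene replicate 1 is high for Fgf2, Fgf7, Fgf10, Fgf18 and most marker lists, and bexarotene replicate 2 is high for Fgf18, Fgf7 and fibroblast markers.

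Over all 12 tumors, the correlation with the fibroblast markers was r = 0.85 for Fgf2 and r = 0.838 for Fgf7, a description that rests on bexarotene replicate 1. Over the 11 tumors without it, r was 0.197 (Spearman's rho -0.236, permutation p-values 0.55 and 0.486) for Fgf2 and 0.445 (rho -0.0182, permutation p-values 0.181 and 0.967) for Fgf7. Leaving out the 2 tumors farthest from the median of the marker level, bexarotene replicate 2 and control replicate 1, gave r = -0.536 for Fgf2 and -0.681 for Fgf7. No relation passed the Benjamini-Hochberg adjustment among the 35 pairs of 7 genes and 5 marker lists. Fgf1 and the basal and myoepithelial markers had r = 0.726 and rho = 0.636 (permutation p-values 0.0127 and 0.0411, adjusted 0.222 and 0.719), and r = 0.723 without the 2 farthest tumors. Fgfr4 and the luminal markers had r = -0.727 with a permutation p of 0.0109, which became r = -0.0846 without the 2 farthest tumors.

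Genes with the most similar pattern over those 11 tumors were named by the highest Pearson's r of log2 levels, as a description with no test. They were Gch1 (r = 0.945) and Rhoj (0.935) for Fgf1, Gm13594 (0.924) and Krba1 (0.92) for Fgf2, and Nat9 (0.951) and Prkag2os1 (0.929) for Fgf7. For the receptors they were Gpr137b (0.936) and Spsb1 (0.927) for Fgfr1, Mrpl1 (0.913) and Csf2rb (0.908) for Fgfr2, Ier5 (0.912) and Col9a3 (0.909) for Fgfr3, and Sox11 (0.936) and Cep78 (0.932) for Fgfr4. With 11 tumors and 15504 genes to choose from, values of this size are the top of a long list. With bexarotene replicate 1 included, r for Fgf7 and Nat9 was 0.2, and r for Fgfr2 and Csf2rb was 0.93. Among the members themselves, r between Fgf2 and Fgf7 was 0.86 over 12 tumors and 0.506 over 11, and Fgfr1 and Fgfr2 had r = -0.652 (rho -0.164) over 11.

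Of the 17 other FGF ligand genes, only Fgf11, a member of the intracellular subfamily that is not secreted, passed the filter. It measured 0.949, 1.56, 1.44 and 0.948 normalized CPM in control tumors, 2.64, 2.24, 2.22 and 2.26 with MSU-42011, and 6.01, 2.15, 1.84 and 2.02 with bexarotene. All 8 treated tumors were above the 4 control tumors. Of all tested genes, 1.97% had groups apart for MSU-42011 against control and 2.03% for bexarotene against control. The log2 fold change relative to control was 0.93 (SE 0.40, unadjusted edgeR p 0.0368, adjusted p 1) for MSU-42011 and 1.30 (SE 0.40, unadjusted edgeR p 0.00656, adjusted p 0.762) for bexarotene. The bexarotene value was 0.71 (unadjusted edgeR p 0.0332) without bexarotene replicate 1. Both comparisons use the same control tumors.

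Of 9 co-receptors and binding proteins, 4 passed the filter and 0 were called in any comparison. Il17rd, an antagonist of FGF receptor signaling, had a log2 fold change relative to control of 0.93 (SE 0.55) for MSU-42011 and 1.39 (SE 0.55) for bexarotene, the latter 0.57 without bexarotene replicate 1. Fgfrl1, a receptor without the kinase domain, had -0.44 (SE 0.21) for bexarotene relative to control and -0.34 without that tumor. The median over these genes was 0.35 for MSU-42011 and 0.027 for bexarotene relative to control, beside 0.0015 and 0.030 over all tested genes. The bexarotene median was 0.14 without bexarotene replicate 1, beside 0.0062 over all tested genes.

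The heparan sulfate list held 18 tested genes of 20, with 0 called. For bexarotene relative to control, 3 of these genes had higher and 1 had lower levels with an unadjusted p under 0.05, beside 6.44% of all tested genes, and without bexarotene replicate 1 there were 0 of either, beside 3.35%. Sulf1, a sulfatase that trims heparan sulfate outside the cell, had a log2 fold change of 4.28 (SE 1.30, edgeR adjusted p 0.762), and 1.39 without bexarotene replicate 1. Gpc3, a cell surface heparan sulfate proteoglycan, had 4.46 (SE 1.48, edgeR adjusted p 0.762), and 1.08 without that tumor. Sulf1 measured 76.0 and 7.06 normalized CPM in bexarotene replicates 1 and 2, and Gpc3 53.8 and 3.53. Both were highest in the same pair of tumors as Fgf2, Fgf7 and Fgf18. In the other 2 bexarotene tumors Sulf1 measured 1.07 and 0.429, and Gpc3 0.436 and 0.184.

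All 17 adaptor and relay genes and all 16 response genes were tested, and 0 were called or had an unadjusted p under 0.05 in any comparison. The share of all tested genes under this unadjusted limit was 3.95% between the agonists. Relative to control it was 6.44% with bexarotene and 1.99% with MSU-42011. With shares this low, 0 in lists of this size does not show that these genes did not respond. The median log2 fold change of the adaptor and relay genes was -0.042 for MSU-42011 and -0.016 for bexarotene relative to control, the latter -0.051 without bexarotene replicate 1. For the response genes, which FGF and ERK signaling is known to induce, it was 0.078 and 0.067, the latter 0.052 without that tumor. Mapk3, which encodes ERK1, had -0.23 (SE 0.12) for MSU-42011 relative to control. Etv1, an ETS factor downstream of FGF receptors, had 0.26 (SE 0.15) for MSU-42011 and 0.30 (SE 0.15) for bexarotene (0.34 without bexarotene replicate 1), relative to the same control tumors. Between the agonists, the immediate early gene Fos had -0.95 (SE 0.49) and the ETS factor Etv5 had 0.32 (SE 0.17) for MSU-42011 relative to bexarotene, with edgeR adjusted p-values of 0.997 for both. Without bexarotene replicate 1 these values were -0.62 and 0.28. The medians of this comparison were -0.016 for the adaptor and relay genes and 0.060 for the response genes, beside -0.024 over all tested genes. Without bexarotene replicate 1 the first turned to 0.067 and the second was 0.056, beside -0.0003 over all tested genes.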

How the data were processed

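Poly(A) RNA from frozen pieces of 12 tumors (4 per diet, from separate mice) was sequenced. The authors deposited a raw read count for each gene and tumor, not normalized, and an FPKM table normalized by gene length and total count. Their notes name STAR 2.6.1d, featureCounts 1.5.0-p3 and DESeq2, while the build and strand setting are not given in the sources used here. The authors' tables also list a length and coordinates per gene, which matched GENCODE M21 (GRCm38) for 98.3% of genes. Groups came from the sample labels. The 9 members were taken by gene symbol.

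Counts were normalized with TMM factors and tested in edgeR 4.0.16 (filterByExpr, quasi-likelihood F test, 12 tumors in 1 model, Benjamini-Hochberg over 15504 genes, threshold 0.05). Standard errors were taken from the log2 fold change and its F value. For single genes, two-sided exact permutation tests used log2(normalized CPM + 0.5). Marker levels are means of the same log2 values, and correlations used 100000 permutations. R 4.3.3, limma 3.58.1, DESeq2 1.42.0, Python 3.11.15 and scipy 1.17.1 were used. Members, marker lists and pathway lists were chosen with earlier results of these data known. Other genes were named as the 2 with the smallest p per list and comparison or the 2 with the highest r. The edgeR step was tested on data simulated with the same spread for every gene and with no tumor set apart. That test therefore does not cover the effect of a tumor like bexarotene replicate 1. Alternatives were DESeq2 and its size factors, no filter, at least 10 counts in every tumor, only the compared groups, the replicate number as a block, limma on log2 FPKM, and each tumor left out.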

Additional observations from a re-analysis of the deposited data

Results flagged for a closer look

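A tumor far from the other 3 of its group, by the ratio of its gap to the group's range, was seen in 6 of 27 combinations of a gene and a diet group. For normally distributed values chance gives about 1 in 20, and whether these normalized CPM are so distributed was not tested. The rate does not apply to 4 of the 6, where the other tumors were at 0 and any count sets the ratio to its maximum. Fgfr3 in control replicate 2 was 6.68 normalized CPM, against 0.771 to 0.909 in the other control tumors. Fgf10 in bexarotene replicate 1 was 3.10 normalized CPM, against 0 to 0.143 in the other bexarotene tumors. These 4 rest on between 1 and 4 raw counts each. They were Fgf10 in control replicate 3 (0.0535 normalized CPM), Fgf10 in MSU-42011 replicate 2 (0.121), Fgf18 in control replicate 1 (0.237) and Fgf18 in MSU-42011 replicate 1 (0.055). The cause of these values was not tested.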

How the results depend on the processing

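Of 438 log2 fold changes of the members recomputed under an alternative, 410 kept their direction and their side of the threshold and 28 changed sign, all in comparisons where no member was called. Where edgeR called 0 genes in each comparison, DESeq2 called 1 between MSU-42011 and control, 6 between bexarotene and control, and 25 between the agonists, and the cause was not tested. Leaving out 1 tumor gave 0 to 1 called genes for bexarotene against control, with the 1 gene appearing without MSU-42011 replicate 2. Correlations of deviations from the group means gave 1 passing pair instead of 0, Fgf1 with the adipocyte markers (r = -0.871, permutation p 0.00052, adjusted 0.0182), a list with 2 of 8 genes tested. For Fgf2 in MSU-42011 against control, limma on log2 FPKM gave 0.046 with 1 added and 0.064 with 0.1 added. For Fgfr3 in MSU-42011 against bexarotene, limma with 0.1 added gave 0.031, and leaving out bexarotene replicates 1 and 2, an alternative added after seeing the data, gave 1.5.

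Same-numbered deviations from the group means correlated at -0.388 to 0.38. Tumors with different numbers were not compared, so these values cannot decide whether the replicate numbers pair the tumors. With the replicate number as a block, 0 genes were called in each comparison, and the values for Fgf2 (MSU-42011 against control, 0.0099) and Fgfr1 (bexarotene against control, -0.0012) changed sign.

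Leaving out each tumor in turn moved the log2 fold change through 0 for 12 of 21 member values. For MSU-42011 against control the ranges were -0.24 to 0.097 (Fgf1), -0.20 to 0.14 (Fgf2), -0.16 to 0.13 (Fgfr1), -0.46 to 0.33 (Fgfr2) and -1.35 to 0.44 (Fgfr3). For bexarotene against control they were -0.13 to 0.13 (Fgfr1), -0.55 to 0.10 (Fgfr2) and -1.58 to 0.90 (Fgfr3). For MSU-42011 against bexarotene they were -0.18 to 0.11 (Fgfr1), -0.40 to 0.69 (Fgfr2), -0.82 to 0.58 (Fgfr3) and -0.024 to 0.32 (Fgfr4). Fgf10 and Fgf18 had too few counts for a value in these fits, and Fgfr3 had none with at least 10 counts in every tumor. A floor of 0.116 to 0.181 CPM limits what can be said of Fgf10 and Fgf18, and 4 tumors per diet limit the rest.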
